A study of Mus musculus with 28 samples.

Results

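Nr4a1, Nr4a2 and Nr4a3 are the 3 genes of the NR4A group of nuclear receptors, and their RNA was measured here in the hippocampus of mice after exposure to a new environment, after a histone deacetylase inhibitor and after both. They were taken by symbol, as the rows of the array annotated to 1 of these symbols alone. Each gene had 1 such row, so the 3 genes were 3 of the 19938 genes tested. Levels are log2 expression values, and a difference of 1 on that scale is a doubling.

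NR4A receptors are orphan nuclear receptors: their ligand pocket is filled by side chains of the protein, so that their activity follows mainly from how much protein is made and how it is modified. The genes are immediate early genes, transcribed within minutes of synaptic activity when calcium and cyclic AMP signals activate CREB and its coactivator CBP. In the hippocampus they are known for their induction by learning, and NR4A function there is reported to be needed for the gain in long-term memory that deacetylase inhibitors give. Nr4a1 encodes NUR77, Nr4a2 encodes NURR1 and Nr4a3 encodes NOR1, and all bind the same response element on DNA as monomers.

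The 28 arrays held hippocampal RNA of female C57/DBA F1 hybrid mice aged 3 months, and each array was a pool of RNA of 3 to 4 mice. For cbp+/- mice, which carry 1 inactivated allele of the CBP gene Crebbp, and for their wild-type littermates alike, there were 3 arrays of novelty with trichostatin A (TSA, a histone deacetylase inhibitor), 3 of novelty with vehicle, 3 of TSA in standard housing and 5 of standard-housing controls. Novelty was 1 h alone in a box with tubing and toys, TSA was injected intraperitoneally at 2.4 mg/kg 75 min before tissue collection, and in the combined groups novelty began 15 min after the injection. Of the 5 controls of each genotype, replicates 1 and 2 were naive and replicates 3 to 5 had been injected with vehicle, and the submitters used the control arrays in a second series as well. Nothing states which arrays were processed together, but 24 arrays fell into 3 sets by correlated deviations: vehicle controls 3, 4 and 5 went with replicates 1, 2 and 3 of the other groups as sets 2, 3 and 4. The naive controls were put in set 1 by their label. Sets 2 to 4 came from these data, not from the labels, so receptor calls are read without and with array set as a block.

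Array medians lay between 5.46 and 5.63 on the log2 scale, and the correlation between arrays over all transcript clusters was 0.9676 to 0.9952, with no identical pair. The highest of the dentate granule, CA1 and CA3 markers were Prox1 (average 8.28), Mpped1 (9.63) and Grik4 (8.30), all above every array's median. The lowest dentate and CA3 markers were Tdo2 (4.13) and Iyd (5.64). Of the markers of layer 4 and 5 cortex, Etv1 (9.07), Fezf2 (7.92) and Rorb (6.91) were also above every array's median. Rspo1 (5.35) and Scnn1a (5.14) were below it. These levels therefore do not tell hippocampus from cortex. Choroid plexus markers were raised most, by 1.50 to 1.89 above their median, in 3 arrays of set 2. These were TSA with novelty replicate 1 of wild type, and TSA replicate 1 and control replicate 3 of cbp+/-. Smaller rises included 0.88 in TSA with novelty replicate 2 of cbp+/- (set 3) and 0.63 in naive control replicate 1 of wild type. Crebbp was not lower in cbp+/- arrays: it differed from wild type by 0.21 ± 0.05 with the set as a block (standard error, limma adjusted p = 0.066). Without the block the Crebbp difference was 0.21 ± 0.12, and it passed the threshold in neither fit. Where its probes lie relative to the inactivated part is not given, so this level does not check the genotype labels.

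The starts of the 3 genes are shown because the genes moved together in what follows. The 250 bases upstream of each annotated start were taken from RefSeq promoter windows of the GRCm38.p6 assembly, 5′ to 3′ on the gene's strand, with every cAMP response half-site in capitals (TGACG, or CGTCA on the other strand). RefSeq holds models of Nr4a1 and Nr4a3 with other starts as well, which are not shown. The Nr4a1 window is chr15:101266596-101266845 on the plus strand, the Nr4a2 window chr2:57124004-57124253 on the minus strand and the Nr4a3 window chr4:48045055-48045304 on the plus strand.
Nr4a1: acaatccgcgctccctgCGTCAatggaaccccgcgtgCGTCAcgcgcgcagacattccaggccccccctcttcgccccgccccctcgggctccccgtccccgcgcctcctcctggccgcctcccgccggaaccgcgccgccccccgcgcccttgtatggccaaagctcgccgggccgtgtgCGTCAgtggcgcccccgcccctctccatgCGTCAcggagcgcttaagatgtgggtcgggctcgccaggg
Nr4a2: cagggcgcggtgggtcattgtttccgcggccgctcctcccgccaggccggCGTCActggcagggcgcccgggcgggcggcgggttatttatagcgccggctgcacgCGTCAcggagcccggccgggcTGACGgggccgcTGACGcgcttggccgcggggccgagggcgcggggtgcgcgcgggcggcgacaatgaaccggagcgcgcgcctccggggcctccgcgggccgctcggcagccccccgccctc
Nr4a3: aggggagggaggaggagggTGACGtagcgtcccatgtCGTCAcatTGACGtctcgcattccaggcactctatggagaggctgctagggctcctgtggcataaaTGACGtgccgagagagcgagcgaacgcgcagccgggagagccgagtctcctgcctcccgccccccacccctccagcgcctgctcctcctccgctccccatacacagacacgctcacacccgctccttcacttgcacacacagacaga
Each window held 4 half-sites, the element that CREB binds. Of all 32851 windows of that length, 17.77% held at least 1 half-site and 0.137% held 4 or more. In the Nr4a1 window the first base of a half-site lay 233, 213, 69 and 40 bases before the start, in Nr4a2 200, 144, 123 and 111, and in Nr4a3 231, 213, 205 and 147. The full palindrome TGACGTCA was in none of the 3 windows and in 1.55% of all windows. The response element of NR4A monomers, AAAGGTCA, searched on both strands, was in none of them and in 1.34% of all. Elements that NR4A dimers bind were not searched. A MEF2 element was in the Nr4a2 window, as in 2.92% of windows, and no CArG box (1.47% of windows) or sense-strand TATAAA (7.59%) was in any of the 3. The windows were 74.4% (Nr4a1), 80.0% (Nr4a2) and 63.6% (Nr4a3) G and C, against a median of 52.4% over all windows, and the base composition enters how often such letters occur. These matches describe letters in a window, and the arrays hold no measurement of binding.

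Novelty raised the RNA of all 3 receptors. Averaged over both genotypes, with and without TSA, Nr4a1 was 2.15-fold higher after novelty than in standard housing (95% confidence interval 1.95 to 2.36), Nr4a2 1.43-fold (1.34 to 1.52) and Nr4a3 1.39-fold (1.30 to 1.48), with array set as a block. Without the block these folds were 2.27 (1.78 to 2.89), 1.41 (1.21 to 1.64) and 1.38 (1.27 to 1.49). TSA moved none of them past the threshold in the fits without and with the block, alone or on top of novelty, and neither did the cbp+/- genotype. With array weights Nr4a1 was called for TSA in wild-type standard housing, where 19.4% of all genes were. As the tissue was the whole hippocampus, more cells that transcribe a gene and more RNA per cell cannot be told apart.

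Nr4a1, an immediate early gene used as a marker of active neurons, was at 10.35, 9.76 and 9.37 in cbp+/- mice after novelty with TSA (replicates 1 to 3), against 9.35, 8.81 and 8.15 under TSA in standard cages. The cbp+/- arrays after novelty with vehicle were at 10.43, 9.94 and 9.36, against 8.64, 8.45, 9.58, 8.65 and 8.51 in the 5 controls. In each of these comparisons a replicate of set 2 was the highest of its group, and control replicate 3 lay above the lowest novelty array. With TSA the cbp+/- groups did not overlap. In wild-type mice Nr4a1 was at 10.36, 9.84 and 10.07 after novelty with TSA, against 9.46, 8.82 and 8.21 with TSA in standard housing. Wild-type arrays after novelty with vehicle were at 10.37, 10.04 and 9.64, against 8.46, 8.52, 9.38, 8.72 and 8.69 in controls. In wild-type mice the groups did not overlap in either comparison. How many of all genes were apart in comparisons of so few arrays was not counted, here or for the other receptors below.

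Over all arrays, Nr4a1 ranged from 9.36 to 10.43 after novelty (median 9.99, n = 12) and from 8.15 to 9.58 in standard housing (median 8.67, n = 16). The overlap came from set 2, whose standard-housing arrays (9.35 to 9.58) reached the level of the lowest novelty arrays of set 4. Within each set the groups were apart: 10.35 to 10.43 against 9.35 to 9.58 in set 2, 9.76 to 10.04 against 8.65 to 8.82 in set 3, and 9.36 to 10.07 against 8.15 to 8.69 in set 4.

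Nr4a2, known best for its part in making and keeping midbrain dopamine neurons, was at 8.99, 8.68 and 8.37 in cbp+/- mice after novelty with TSA, against 8.65, 8.23 and 7.88 under TSA in standard cages. The cbp+/- arrays after novelty with vehicle were at 9.05, 8.85 and 8.43, against 8.31, 8.38, 8.48, 8.16 and 7.82 in controls. These groups overlapped, and the array of set 4 was the lowest of each cbp+/- group. In wild-type mice Nr4a2 was at 9.05, 8.77 and 8.79 after novelty with TSA, against 8.70, 8.31 and 8.14 with TSA in standard housing. Wild-type arrays after novelty with vehicle were at 9.23, 8.81 and 8.43, against 8.19, 8.43, 8.59, 8.22 and 8.09 in controls. The wild-type groups with TSA did not overlap and those with vehicle did. Within sets Nr4a2 again separated: 8.99 to 9.23 after novelty against 8.48 to 8.70 in standard housing in set 2, 8.68 to 8.85 against 8.16 to 8.31 in set 3, and 8.37 to 8.79 against 7.82 to 8.14 in set 4.

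Nr4a3, which encodes the receptor NOR1, had group SDs of 0.02 to 0.22, against 0.16 to 0.40 for Nr4a2 and 0.26 to 0.63 for Nr4a1. It was at 8.53, 8.50 and 8.63 in cbp+/- mice after novelty with TSA, against 8.21, 8.29 and 7.99 under TSA in standard cages. The cbp+/- arrays after novelty with vehicle were at 8.65, 8.62 and 8.60, against 8.0, 8.06, 8.21, 8.13 and 7.83 in controls. The cbp+/- groups did not overlap in either comparison, and the 3 vehicle arrays after novelty had an SD of 0.02. With so few arrays per group, the share of all genes that were apart in this way was not counted, in either genotype. In wild-type mice Nr4a3 was at 8.52, 8.53 and 8.31 after novelty with TSA, against 8.11, 7.93 and 7.80 with TSA in standard housing. Wild-type arrays after novelty with vehicle were at 8.42, 8.64 and 8.20, against 8.13, 8.11, 8.04, 8.08 and 7.86 in controls. Again neither pair of wild-type groups overlapped, although replicate 3 of both novelty groups was the lowest. Over all arrays the ranges met, at 8.20 to 8.65 after novelty and 7.80 to 8.29 in standard housing.

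**Figure D1:**
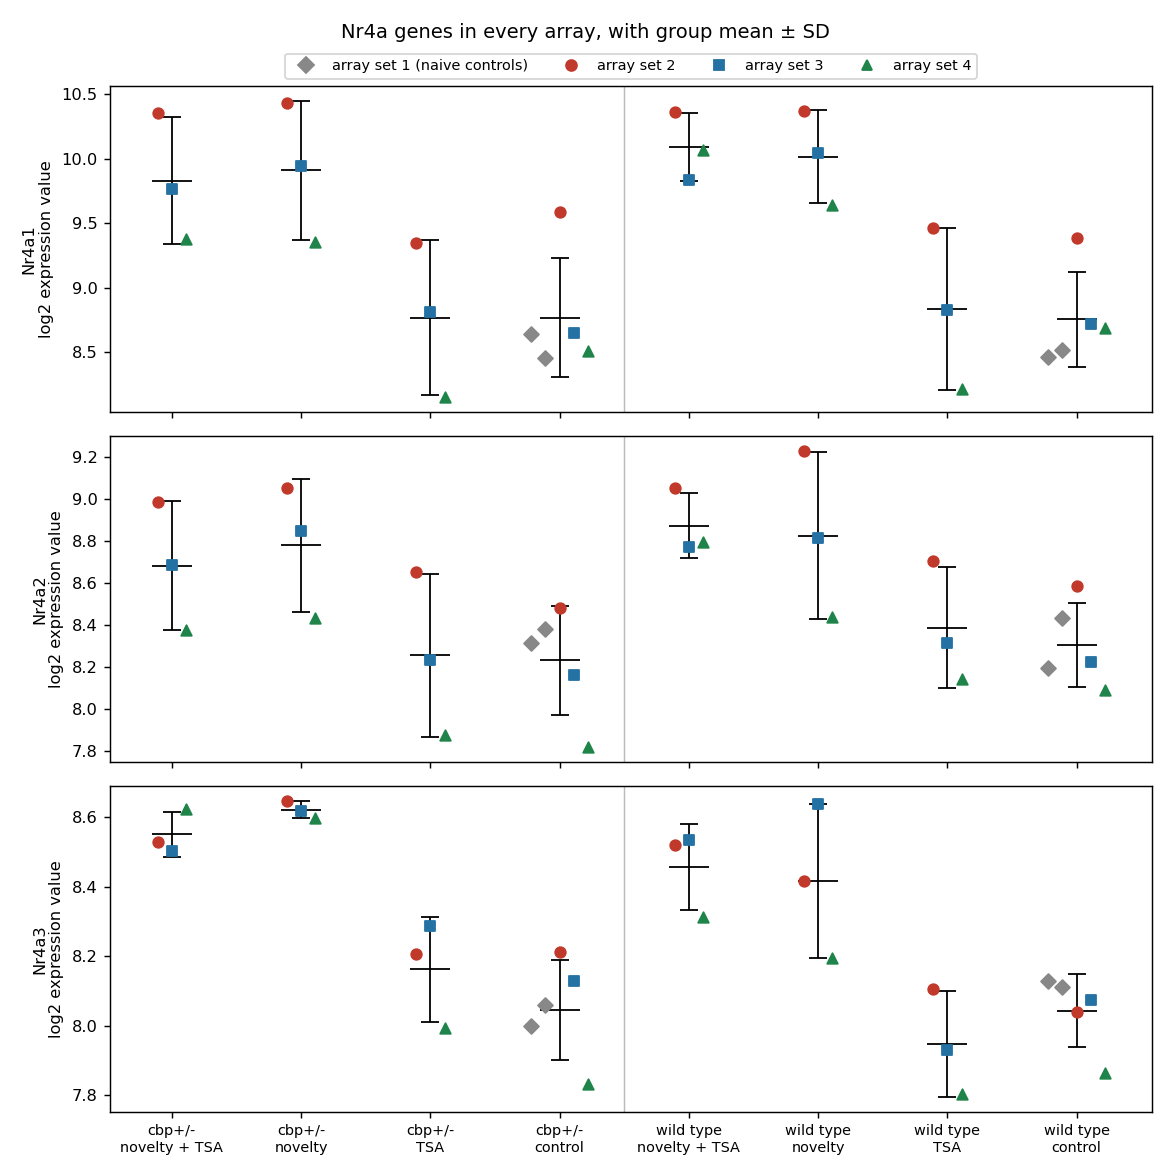
Log2 expression values of Nr4a1, Nr4a2 and Nr4a3 in all 28 arrays, by group, with cbp+/- groups on the left and wild-type groups on the right. Points are arrays, coloured and shaped by array set, and black bars are group means with SD (n = 3, or 5 for controls). For each gene the 4 novelty groups have the highest means, and for Nr4a1 and Nr4a2 set 2 lies highest and set 4 mostly lowest.

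The order of the group means put the 4 novelty groups above the 4 standard-housing groups for every receptor. For Nr4a1 the means fell into 9.83 to 10.09 after novelty and 8.75 to 8.83 in standard housing, a gap of 1.00 between the groups on either side. The gap was 0.29 for Nr4a2, between cbp+/- novelty with TSA (8.68) and wild-type TSA (8.39), and 0.25 for Nr4a3, between wild-type novelty (8.42) and cbp+/- TSA (8.16). Every group overlapped its neighbour in this order in its range of arrays. Housing took 68.1% of the variance of Nr4a1 over the 28 arrays, 49.6% of that of Nr4a2 and 74.4% of that of Nr4a3. The array sets, which are not balanced over the groups, took 43.4% of the variance of Nr4a1, 45.2% of that of Nr4a2 and 16.1% of that of Nr4a3.

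In the limma fit across all genes without a block, the novelty difference averaged over the 4 backgrounds was 1.18 ± 0.17 for Nr4a1 (standard error, adjusted p = 0.000504), 0.50 ± 0.10 for Nr4a2 (adjusted p = 0.0455) and 0.46 ± 0.05 for Nr4a3 (adjusted p = 4.37e-05). All 3 receptors passed the threshold of 0.05, as did 0.191% of all genes. The Nr4a2 call was kept in only 7 of 28 unblocked fits that left out 1 array (adjusted p up to 0.132) and was lost with vehicle controls only. With array set as a block the limma differences were 1.10 ± 0.07 (adjusted p = 2.49e-11) for Nr4a1, 0.52 ± 0.05 (adjusted p = 3.3e-08) for Nr4a2 and 0.47 ± 0.04 (adjusted p = 1.32e-07) for Nr4a3. By size Nr4a1 was then gene 6, Nr4a2 gene 20 and Nr4a3 gene 23 of 19938, and 0.476% of all genes passed.

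Within matched pairs, in which both arrays shared set, genotype and injection, novelty was higher in 12 of 12 pairs for each receptor. The pair differences were 0.85 to 1.86 for Nr4a1 (mean 1.10 ± 0.29 SD), 0.33 to 0.69 for Nr4a2 (0.52 ± 0.13) and 0.22 to 0.77 for Nr4a3 (0.47 ± 0.15). The exact sign-flip permutation test, two-sided, gave p = 0.000488 for each of the 3, the smallest value that 12 pairs allow, and 9 such tests were run without adjustment. By set the mean difference was 0.94, 1.15 and 1.22 in sets 2, 3 and 4 for Nr4a1, 0.47, 0.55 and 0.53 for Nr4a2, and 0.39, 0.47 and 0.56 for Nr4a3. All 4 novelty arrays lay above all 4 standard-housing arrays in each of the 3 sets for all 3 receptors, which held for 0.105% of all genes.

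**Figure D2:**
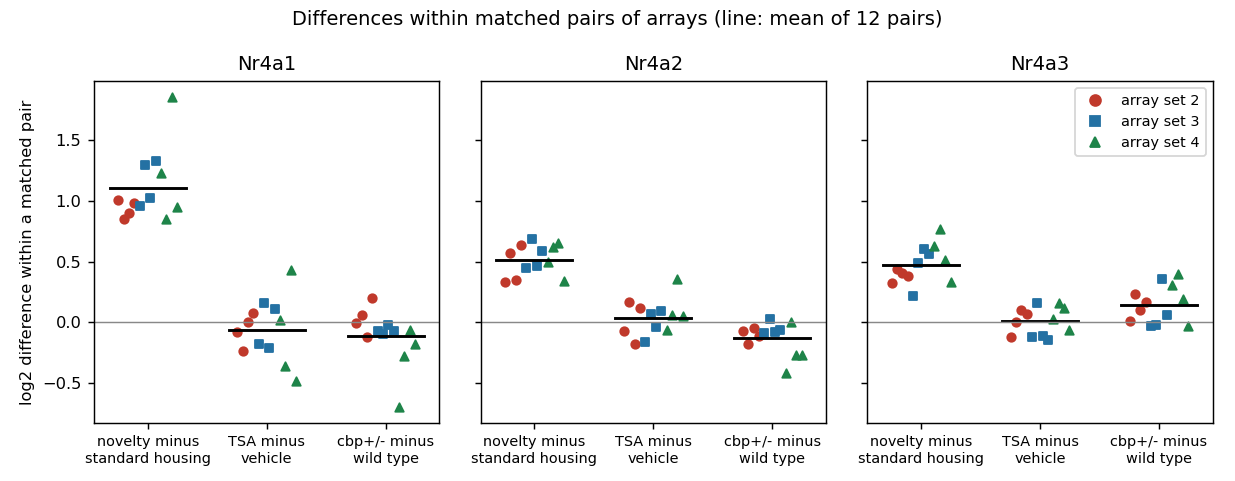
Log2 differences within 12 matched pairs of arrays for each receptor, for novelty minus standard housing, TSA minus vehicle and cbp+/- minus wild type. Points are pairs, coloured and shaped by array set, and the black line is the mean of 12 pairs. All novelty differences are above 0 (means 1.10, 0.52 and 0.47), while the TSA differences lie on both sides of 0.

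By background, the differences were alike in size but not all passed the test. The controls here included the naive arrays, so without the block injection and array set can enter the differences from controls. Matched pairs used vehicle controls only. With vehicle, their mean differences for Nr4a1, Nr4a2 and Nr4a3 were 1.00, 0.63 and 0.57 in cbp+/- mice. In wild-type mice they were 1.09, 0.52 and 0.42. In cbp+/- mice, novelty with vehicle differed from all controls by 0.98 ± 0.13 for Nr4a1 (limma with the block, adjusted p = 0.000176). In the same fit it differed by 0.59 ± 0.09 for Nr4a2 (0.000766) and 0.59 ± 0.08 for Nr4a3 (0.000582). Of all genes, 0.0853% were called. Without the block only Nr4a3 of the 3 passed there, at 0.57 ± 0.10 (adjusted p = 0.0354, with 0.0251% of genes called), and Nr4a1 (1.14 ± 0.32) and Nr4a2 (0.55 ± 0.20) had an adjusted p of 1. In wild-type mice, novelty with vehicle differed from the controls by 1.10 ± 0.13 for Nr4a1 (limma with the block, adjusted p = 2.54e-05) and 0.56 ± 0.09 for Nr4a2 (0.00105), while Nr4a3, at 0.39 ± 0.08, missed the threshold (0.0563), with 0.11% of genes called. Without the block none of the 3 passed in wild type, at 1.26 ± 0.32 for Nr4a1 (adjusted p = 0.858), 0.52 ± 0.20 for Nr4a2 and 0.37 ± 0.10 for Nr4a3 (both 1), with 0.0351% of genes called.

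Under TSA, novelty differed from TSA in standard housing in cbp+/- mice by 1.06 ± 0.14 for Nr4a1 (limma with the block, adjusted p = 0.000179, 0.0451% of genes called). Nr4a2, at 0.43 ± 0.09 (0.117), and Nr4a3, at 0.39 ± 0.09 (0.21), did not pass there. In wild-type mice under TSA the differences were 1.26 ± 0.14 for Nr4a1 (limma with the block, adjusted p = 6.9e-06), 0.49 ± 0.09 for Nr4a2 (0.0177) and 0.51 ± 0.09 for Nr4a3 (0.00905), and 0.1% of genes were called. The matched pairs of Nr4a1 there differed by 0.90, 1.02 and 1.86 in sets 2, 3 and 4, so set 4 was well above the others. Leaving out 1 array at a time, with the block, kept the wild-type call of Nr4a1 in 28 of 28 fits (1.04 to 1.39). The wild-type call of Nr4a2 was kept in 25 of 28 fits (0.37 to 0.56, adjusted p up to 0.331) and that of Nr4a3 in 24 of 28 (0.46 to 0.57, adjusted p up to 0.128). Nr4a2 lost it without TSA replicate 1 (0.49) or 2 (0.46) or TSA with novelty replicate 3 (0.37) of wild type. Nr4a3 lost it without TSA replicate 2 (0.46) or TSA with novelty replicate 1 (0.51), 2 (0.50) or 3 (0.52). Without the block none of the 3 passed under TSA in either genotype, where 0.01% of genes did.

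**Figure D3:**
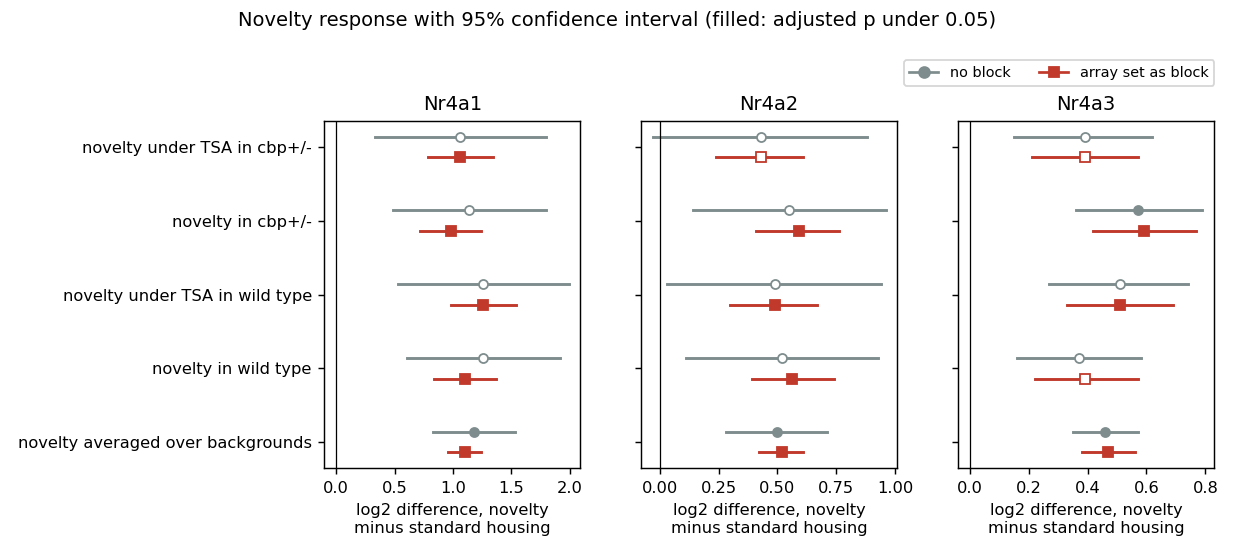
Log2 difference, novelty minus standard housing, with its 95% confidence interval for each receptor in cbp+/- mice under TSA and with vehicle, in wild-type mice under TSA and with vehicle, and averaged. Grey circles are the limma fit without a block and red squares the fit with array set as a block, filled where the adjusted p was under 0.05. In the comparisons with vehicle, the controls include the naive arrays. Every estimate is above 0 and the intervals of the 4 backgrounds overlap for each receptor.

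Whether the response depended on genotype or on TSA was tested as an interaction. The novelty response with vehicle, against all controls, in cbp+/- minus that in wild type was -0.12 ± 0.17 for Nr4a1, 0.03 ± 0.11 for Nr4a2 and 0.20 ± 0.11 for Nr4a3 (limma with the block, adjusted p 0.997, 1 and 0.997), and 0% of genes were called (851 at an unadjusted p under 0.05). The intervals of these differences were -0.47 to 0.23, -0.21 to 0.26 and -0.03 to 0.43 with the block, and -1.05 to 0.81, -0.55 to 0.61 and -0.10 to 0.50 without it. The response under TSA minus that with vehicle, averaged over genotypes, was 0.12 (-0.16 to 0.40) for Nr4a1, -0.12 (-0.30 to 0.07) for Nr4a2 and -0.05 (-0.23 to 0.14) for Nr4a3, each with a limma adjusted p of 1 and 0% of genes called (565 at an unadjusted p under 0.05). Without the block the same differences were -0.04 (-0.74 to 0.65), -0.08 (-0.51 to 0.36) and -0.03 (-0.25 to 0.20).

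TSA differences were small for all 3 receptors. Averaged over housing and genotype, the TSA difference was -0.06 for Nr4a1 (95% interval -0.20 to 0.08), 0.03 for Nr4a2 (-0.06 to 0.13) and 0.01 for Nr4a3 (-0.08 to 0.10) with the block, with limma adjusted p of 0.757, 0.818 and 0.971. Without the block the intervals were -0.33 to 0.37, -0.20 to 0.23 and -0.11 to 0.11. None of the 3 was called, while 4.51% of all genes were with the block and 0.662% without. TSA was higher in 5 of 12 matched pairs for Nr4a1, 7 of 12 for Nr4a2 and 6 of 12 for Nr4a3 (exact sign-flip p = 0.404, 0.459 and 0.828). By housing, Nr4a2 was higher with TSA in 1 of 6 pairs after novelty (-0.18 to 0.36) and in 6 of 6 in standard housing (0.05 to 0.17), a split seen after the pairs were examined, and the TSA by novelty interaction given above did not pass. Nr4a1 was higher in 2 of 6 and 3 of 6 pairs and Nr4a3 in 3 of 6 and 3 of 6. In standard housing alone, the TSA difference with the block in cbp+/- mice was -0.16 ± 0.13 for Nr4a1, 0.06 ± 0.09 for Nr4a2 and 0.14 ± 0.08 for Nr4a3. In wild-type mice it was -0.08 ± 0.13, 0.12 ± 0.09 and -0.08 ± 0.08 for the same genes. None of these passed, with 0.0251% of genes called in cbp+/- and 0.0401% in wild type. With array weights and no block the wild-type difference of Nr4a1 was 0.70 and was called, as were 19.4% of all genes in that fit. After novelty the TSA difference with the block in cbp+/- mice was -0.08 ± 0.14 for Nr4a1, -0.10 ± 0.09 for Nr4a2 and -0.07 ± 0.09 for Nr4a3 (0.0201% of genes called). In wild-type mice after novelty it was 0.07 ± 0.14, 0.05 ± 0.09 and 0.04 ± 0.09 (0.0702% called), and again none passed.

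TSA with novelty was also set against the controls, which are the arrays that the vehicle comparisons used too. In cbp+/- mice that difference was 0.90 ± 0.13 for Nr4a1, 0.49 ± 0.09 for Nr4a2 and 0.52 ± 0.08 for Nr4a3 (limma with the block, adjusted p 0.00055, 0.00774 and 0.00305), with 0.236% of genes called. In wild-type mice it was 1.18 ± 0.13 for Nr4a1, 0.61 ± 0.09 for Nr4a2 and 0.43 ± 0.08 for Nr4a3 (adjusted p 9.45e-06, 0.000541 and 0.0093), with 1.2% of genes called. Without the block none of the 3 passed in either genotype, against 0.0351% of genes called in cbp+/- and 0.0401% in wild type.

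By genotype, Nr4a2 was lower and Nr4a3 higher in cbp+/- mice in most matched pairs, and neither passed in the fit across all genes. Averaged over the 4 backgrounds, the cbp+/- minus wild-type difference was -0.11 ± 0.06 for Nr4a1, -0.11 ± 0.04 for Nr4a2 and 0.13 ± 0.04 for Nr4a3 with the block, and the limma adjusted p were 0.559, 0.268 and 0.171. Without the block the differences were the same to 2 decimals and each adjusted p was 1. None of the 3 was called, against 0.662% of genes with the block and 0% without. In matched pairs, Nr4a2 was lower in cbp+/- in 11 of 12 pairs (mean -0.13 ± 0.13 SD, exact sign-flip p = 0.00146). Nr4a3 was higher in 9 of 12 (0.15 ± 0.16, p = 0.00928) and Nr4a1 lower in 10 of 12 (-0.11 ± 0.22, p = 0.0737), p being from the same exact test and unadjusted. Of the 11 pairs with lower Nr4a2, 1 differed by only -0.00 (set 4, novelty with vehicle). By set the mean difference was -0.10, -0.05 and -0.24 in sets 2, 3 and 4 for Nr4a2. It was 0.13, 0.09 and 0.22 for Nr4a3 and 0.03, -0.07 and -0.30 for Nr4a1, so set 4 had the largest for each. The pairs leave out the naive controls. There Nr4a2 was at 8.315 and 8.379 in cbp+/- against 8.192 and 8.43 in wild type. Nr4a3 was at 7.999 and 8.061 in naive cbp+/- controls against 8.128 and 8.113 in wild type. How many of all genes had such pair counts was not counted. At an unadjusted p under 0.05 the blocked fit held 2365 of the 19938 genes for genotype, Nr4a2 (0.0153) and Nr4a3 (0.0047) among them. Without the block the unadjusted p was 0.3 for Nr4a2 and 0.0247 for Nr4a3. By background, the cbp+/- minus wild-type difference of Nr4a3 was 0.10 ± 0.09 after novelty with TSA, 0.20 ± 0.09 after novelty with vehicle, 0.22 ± 0.09 under TSA in standard housing and 0.00 ± 0.07 in controls, and none passed (limma with the block, adjusted p 0.818, 0.628, 0.697 and 1, with 0.00502% of genes called after novelty with vehicle and 0% in the others). Vehicle controls differed from naive controls by 0.40 ± 0.28 for Nr4a1, -0.10 ± 0.18 for Nr4a2 and -0.05 ± 0.09 for Nr4a3 (limma adjusted p 0.588, 0.882 and 0.89), where 2.41% of genes were called. The naive arrays are a set of their own, so that injection and set cannot be told apart.

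The genes whose pattern over the 28 arrays was most like that of a receptor, after the mean of each array set was removed, were activity-induced genes. For Nr4a1 they were Arc (r = 0.971), Fos (0.962), Npas4 (0.960), Egr1 (0.956) and Fosb (0.945). For Nr4a2 they were Egr1 (0.938), Nr4a1 (0.930), Fosb (0.910), Npas4 (0.905) and Arc (0.896). Nr4a3 had a different head of the list: Homer1 (0.920), Egr2 (0.874), Nfil3 (0.852), Arc (0.843) and Npas4 (0.832). Arc and Homer1 encode proteins of the postsynapse, and the others named encode transcription factors. Between the receptors themselves r was 0.930 for Nr4a1 and Nr4a2, 0.827 for Nr4a1 and Nr4a3 and 0.766 for Nr4a2 and Nr4a3. These correlations describe arrays that share group and processing, and on the deposited values, with set means left in, the 15 correlations of the named genes were 0.783 to 0.958.

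**Figure D4:**
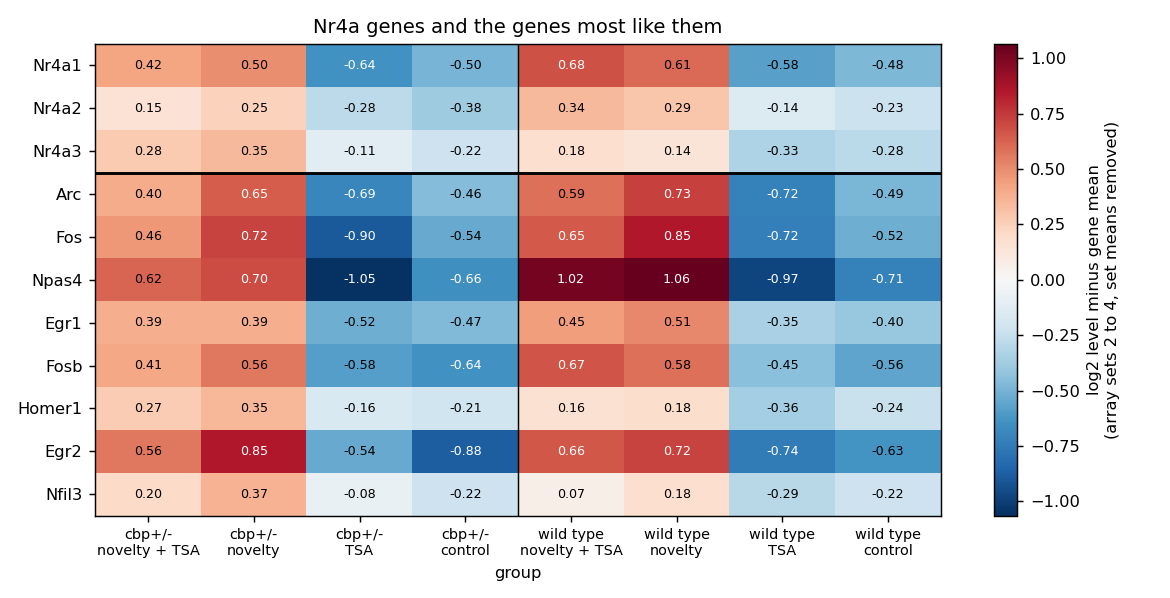
Mean log2 level of each receptor and of the genes most like it in the 8 groups, relative to the gene's mean, over the 24 arrays of sets 2 to 4 with set means removed (vehicle controls only). Colour and printed number give the same value. Every gene is above its mean in all 4 novelty groups and below it in all 4 standard-housing groups. Nr4a3 is at 0.28, 0.35, -0.11 and -0.22 in the cbp+/- groups from left to right, against 0.18, 0.14, -0.33 and -0.28 in wild type, and no genotype test of it passed.

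Other activity-induced factors rose after novelty too. Of 23 other activity-induced transcription factor genes, 13 rose after novelty and none fell with the block (10 rose without), against 0.476% and 0.191% of all genes called. The median difference was 0.31 with the block, against 0.00 over all genes. Npas4, a neuron-specific activity-dependent factor, differed by 1.70 ± 0.06 (limma with the block, adjusted p = 1.44e-16), Egr2 by 1.40 ± 0.08 (5.47e-12), Fos by 1.34 ± 0.09 (4.16e-10) and Fosb by 1.12 ± 0.07 (5.3e-11). Nr4a1 and Fosb were within their standard errors of each other (1.10 and 1.12 with the block, 1.18 and 1.17 without), and Nr4a2 and Nr4a3 were above the median of the list. The list was written with earlier results of these arrays known, so its direction is not independent evidence.

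No other nuclear receptor gene passed for novelty. Of 41 measured, 0 were called by limma with or without the block (5 with and 2 without at an unadjusted p under 0.05), and their differences lay between -0.24 and 0.16 around a median of 0.01. Among these 41 were the 3 RXR genes, whose products pair with NUR77 and NURR1 (-0.08 to 0.05 with the block, 0 at an unadjusted p under 0.05). Among 28 upstream regulators, such as CREB family members, CREB coactivators and kinases, 0 passed by limma (4 with and 1 without the block at an unadjusted p under 0.05), and Crebbp differed by 0.01 ± 0.06 and Ep300 by 0.05 ± 0.05 after novelty (limma adjusted p 0.984 and 0.91). Over all genes the limma fits called 0.476% with the block and 0.191% without.

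Corepressors and protein partners of the NR4A receptors were looked at for novelty and for TSA. For novelty 0 of 15 passed by limma (-0.13 to 0.10, with 2 at an unadjusted p under 0.05 with the block and 1 without). For TSA averaged over backgrounds 5 of the 15 were higher with the block and 2 without, against 4.51% and 0.662% of all genes called in either direction. They were Sin3a at 0.40 (limma with the block, adjusted p = 0.000393), Rcor1 at 0.30 (0.000254), Rcor2 at 0.23 (0.00955), Hdac1 at 0.23 (0.00105) and Mapk7 at 0.22 (0.0126), named here after their values were seen. SIN3A and the CoREST proteins encoded by Rcor1 and Rcor2 are scaffolds of complexes that hold the deacetylase HDAC1, and Mapk7 encodes the kinase ERK5. Of the 41 other nuclear receptor genes, 5 were higher and 2 lower with TSA with the block, and 0 were called without it (limma, 7 at an unadjusted p under 0.05). Nr1d2, which encodes the clock repressor REV-ERB beta, was lower by the largest amount (-0.26, limma with the block, adjusted p = 0.000146), also named after its value was seen. In the remaining lists, with the block, TSA calls were 1 of 23 activity-induced factors (Klf10, -0.22) and 1 of 17 chaperone genes (Creld2, 0.22), and 0 by limma in RXR genes, upstream regulators and both target lists (3, 4, 2 and 0 at an unadjusted p under 0.05).

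Genes proposed as NR4A targets were looked at next. Of 10 measured targets proposed in hippocampus, 5 rose after novelty with the block (2 without), against 0.476% and 0.191% of all genes called, with a median of 0.19. They were Hspa5, the endoplasmic reticulum chaperone BiP (0.38 ± 0.05, limma with the block, adjusted p = 1.56e-05), Sdf2l1 (0.35 ± 0.06, 0.00243), Fosl2 (0.29 ± 0.05, 0.00409), the neurotrophin gene Bdnf (0.20 ± 0.04, 0.0224) and Pdia6 (0.18 ± 0.04, 0.0385). Of 17 genes for chaperones and folding enzymes of the endoplasmic reticulum, a list that shares members with the proposed targets, 6 rose with the block and 2 without, against the same shares of all genes (median 0.16), with Creld2 at 0.23 ± 0.04 (0.00187) among them. Of 8 targets of NURR1 in dopamine neurons, 0 passed by limma (1 with the block and 0 without at an unadjusted p under 0.05) and the median was 0.04. Fosl2 is also on the list of activity-induced factors. These lists too were written with earlier results of these arrays known, so their direction is not independent evidence, and regulation by the receptors was not tested. Tissue was taken at the end of the 1 h exposure, and the arrays hold 1 time only.

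**Figure D5:**
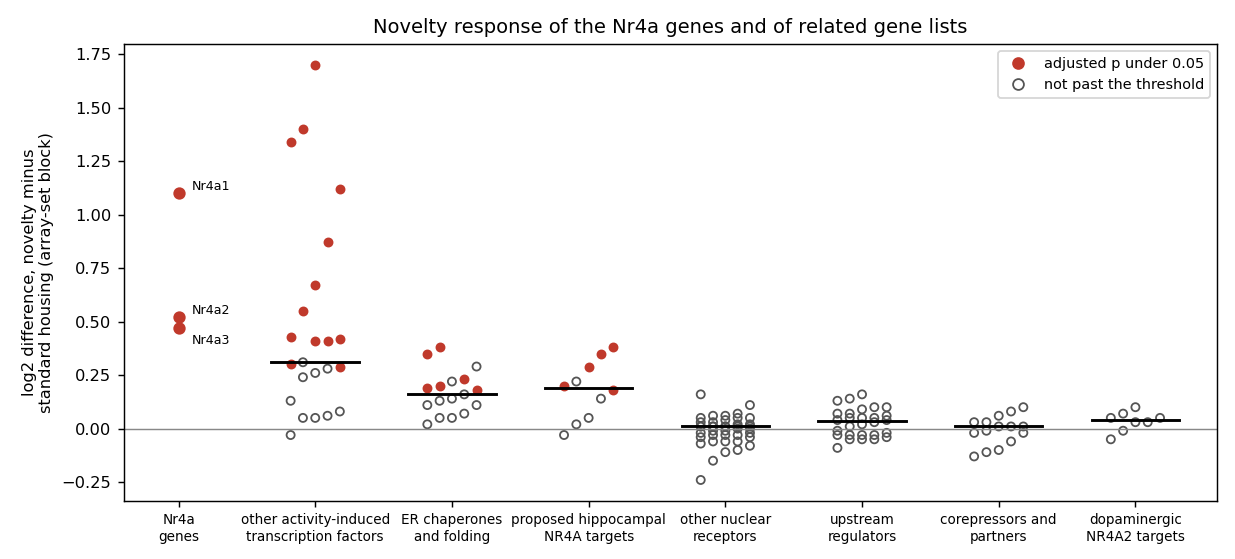
Log2 difference, novelty minus standard housing averaged over backgrounds with array set as a block, for the 3 Nr4a genes and for the genes of 7 related lists. Each point is a gene, red where the limma adjusted p was under 0.05 and open otherwise, and black lines are list medians. Calls occur among activity-induced factors, chaperones and proposed hippocampal targets, and 0 of the 41 other nuclear receptor genes was called.

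Cell type markers were read beside the novelty result. Of 65 markers in 13 lists, 0 passed for novelty in the limma fit with or without the block, and 11 and 6 had an unadjusted p under 0.05. List medians with the block were -0.12 for oligodendrocyte markers, -0.11 for meningeal and fibroblast markers, of which 0 of 6 were positive, and -0.07 for endothelial markers. Without the block these medians were -0.05, -0.11 and -0.11. The mean level of the meningeal list was 6.36 to 6.59 after novelty and 6.47 to 6.74 in standard housing, and that of the oligodendrocyte list 8.54 to 9.25 after novelty and 8.63 to 9.34 in standard housing. Their part in the result was not tested. Neuronal lists had medians of 0.01 (CA1), -0.02 (CA3), -0.05 (dentate) and -0.01 (pan-neuronal) with the block, and 0.09, -0.05, -0.02 and 0.02 without it. Without the 3 arrays with the most raised choroid plexus markers, the unblocked novelty differences were 1.27 for Nr4a1 (limma adjusted p = 0.000247), 0.54 for Nr4a2 (0.0413) and 0.47 for Nr4a3 (0.000264). TSA with novelty replicate 2 of cbp+/-, at 0.88 above the choroid plexus median, was kept in that fit.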

How the data were processed

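Hippocampal RNA of 28 pools was hybridised to Affymetrix Mouse Gene 1.0 ST arrays. The values are log2 expression values deposited by the authors, processed and normalized with GeneSpring GX 11 per the labels' protocols, with RMA named per the submitters' processing notes; the sources used here do not name a build or a version of it. Array values carry no read depth, and the number of arrays limits the precision.

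Of 35556 transcript clusters, 21789 had 1 gene symbol in the platform annotation, 1621 had several and 12146 had none. The cluster with the highest mean was kept for each of 999 genes with several, which left 19938 genes. Each comparison was a contrast of 8 group means (10 for vehicle against naive) in limma 3.58.1 (R 4.3.3; lmFit and eBayes, two-sided, Benjamini-Hochberg adjustment over all genes, threshold 0.05), without a block and with array set as a block. A positive difference means higher after novelty, with TSA or in cbp+/-. Replicates are pools of separate animals by the labels.

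Pairing was checked on deviations from group means. Arrays of the TSA and novelty groups with the same label number correlated at 0.52 to 0.80 (45 pairs), and those with other numbers at -0.63 to -0.07 (90 pairs). Controls with the same label number gave -0.58 to 0.23, and vehicle controls matched at their number minus 2 gave 0.41 to 0.74, which is the pairing that the array sets use. Naive controls correlated at 0.33 to 0.51 across genotypes (4 pairs) and at -0.38 to 0.43 with other arrays, so their set rests on the label. Sets 2 to 4 come from the data, and p-values with the block depend on them.

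The receptors were named in every comparison. In each list the up to 4 genes with the smallest blocked p for novelty were named, with Crebbp and Ep300 in any case, and the 5 genes with the highest correlation to each receptor. Members, lists, sets and tests were chosen with earlier results of these data known. Of 45 listed nuclear receptor genes 41 were measured, of 32 upstream regulators 28, of 18 partners 15 and of 11 proposed targets 10. Alternatives were fits with vehicle controls only, other variance, weighting, normalization and filter settings, and fits leaving out arrays or sets. The fits were tested on data simulated separately for each fit, with 200 of 19938 genes changed. For novelty in wild type, changes of 0.5 were called in 36.5% of those genes without the block and 74.5% with it. For changes of 1 the shares were 91.5% and 100%. For averaged novelty, changes of 0.5 were called in 90% without the block and 98.5% with it. Promoter windows and motif counts used Python 3.11.15.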

Additional observations from a re-analysis of the deposited data

Results flagged for a closer look

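Nr4a1 in the cbp+/- controls had 1 array far from the others: replicate 3, a vehicle control of set 2, was at 9.58 and the other 4 at 8.45 to 8.65, a gap of 0.83 of the group's range. Nr4a1 in the wild-type controls had the same feature, with replicate 3, also of set 2, at 9.38 and the other 4 at 8.46 to 8.72, a gap of 0.724 of the range. Chance marks about 1 in 20 groups in this way. All 8 arrays of set 2 were at 9.35 or above for Nr4a1, and the cbp+/- array was also 1 of the 3 with the most raised choroid plexus markers, whose part was not tested.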

How the results depend on the processing

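All 1050 novelty differences of the 3 receptors under the alternatives were above 0 in each background and on average. Each blocked fit that left out an array or a set was compared with the blocked fit on all arrays, and every other alternative with the unblocked one. Of 4932 values compared in this way, 246 changed sign, all of them differences that passed no test before or after, and 0 called differences did. With array set as a block, novelty in wild type was called for Nr4a1 (1.10) and Nr4a2 (0.56) and in cbp+/- for Nr4a1 (0.98) and Nr4a2 (0.59), which the unblocked fit did not call. With vehicle controls only and the block these 4 values were 1.09, 0.52, 1.00 and 0.63, again called, and with array weights Nr4a1 in cbp+/- was called at 1.42. Array weights also called TSA in wild-type standard housing for Nr4a1, at 0.70, against 0.08 without weights and -0.08 with the block, in a fit that called 19.4% of all genes. Nr4a3 in cbp+/- lost its call with vehicle controls only (0.56), with only the arrays compared, with an intensity trend or with all transcript clusters (0.57 each) and after repeated quantile normalization (0.59). Averaged novelty for Nr4a2 lost its call with vehicle controls only (0.52) and with all clusters (0.50). The cause was not tested, except that more rows were adjusted over with all clusters. With the block and without set 2, Nr4a2 was no longer called in wild type (0.52) or cbp+/- (0.60). Without set 3, calls ended for Nr4a2 in wild type (0.55) and for Nr4a1 (0.83) and Nr4a2 (0.54) in cbp+/-, each with fewer arrays. Leaving out 1 array at a time without the block, averaged novelty was 1.10 to 1.26 for Nr4a1 and 0.43 to 0.49 for Nr4a3, called in 28 of 28, and 0.44 to 0.54 for Nr4a2, called in 7 of 28. With the block it was called in 28 of 28 for each receptor. Nr4a3 in cbp+/- was 0.52 to 0.62 without the block (14 of 28 called) and 0.54 to 0.65 with it (28 of 28 called). Nr4a3 in wild type with the block was 0.30 to 0.45 (called in 2 of 28, at 0.39 without cbp+/- novelty with TSA replicate 3 and at 0.41 without cbp+/- control replicate 3). With the block, TSA with novelty against controls lost its call in 2 of 28 for Nr4a2 in cbp+/- (0.46 without control replicate 5 and 0.50 without TSA with novelty replicate 1 of cbp+/-) and in 1 of 28 for Nr4a3 in wild type (0.42 without TSA with novelty replicate 2). With the replicate block by label number, averaged novelty was 1.14, 0.43 and 0.44 for Nr4a1, Nr4a2 and Nr4a3, all called. The correlation of Nr4a1 with Fos was 0.962 with set means removed and 0.828 on deposited values.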
